A study of Homo sapiens with 6 samples.

Results

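NRF2, the transcription factor encoded by NFE2L2, and 9 of its target genes were followed in the human cell line MDA-MB-231, which was established from a triple-negative breast cancer. The genes were HMOX1, GCLM, GCLC, SLC7A11, SRXN1, NQO1, TXNRD1, GPX2, OSGIN1 and NFE2L2. All 10 were found by symbol among the 16258 genes of the deposited table, and all 10 were among the 15786 genes with a mean value of at least 10. The set was chosen by these same values, since HMOX1 and GCLM had been seen to be higher in migratory cells before it was drawn up. The differences between the groups are therefore described for these 10 genes, with SEs and 95% intervals for their precision and without p-values. Where the number of them called by a test is given, it stands beside the share of all genes called and nothing is read from it.

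Cells had been kept in serum-containing medium, moved from flasks into microfluidic devices, and the highly motile ones collected as the migratory group. The unsorted population, with no selection for movement, was the comparison group. Neither group carried a drug treatment or a genetic change according to the labels, and both came from the same line. Each group had 3 samples of 1000 cells, and the labels do not say whether these were separate cultures or how long the unsorted cells were in a device. Values are normalised read counts, that is, reads per gene divided by 1 size factor per library, from amplified full-length cDNA without molecular identifiers or strand information.

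NRF2 is held at low levels in resting cells by KEAP1, an adaptor that presents it to a CUL3 ubiquitin ligase for degradation. Oxidants and electrophiles modify KEAP1, NRF2 then escapes, pairs with a small MAF protein and binds antioxidant response elements near genes for glutathione synthesis, thioredoxin recycling, quinone reduction and haem breakdown. BACH1 competes for such elements as a repressor and is released from them by haem. Control of NRF2 is largely at the protein level, so the RNA of NFE2L2 and the activity of the protein are different quantities, and the libraries measured RNA only.

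The antioxidant response element core, TGACNNNGC on either strand, was searched in RefSeq promoter windows (build GRCh38.p14) running from 250 bases before to 50 bases after an annotated start. Windows were held for 8 of the 10 genes, with a pair of starts each for TXNRD1 and NFE2L2. None was held for HMOX1 or SLC7A11, so these genes were not searched. The core was present in the windows of GCLM, TXNRD1 and GPX2. Of all 35116 windows of this length 13.3% held it, and the share was 14.6% among the 14993 windows whose gene was measured here. The windows that held the core are shown because these 3 genes went different ways between the groups, and the window of OSGIN1 because it held the AP-1 motif TGANTCA in place of it. Sequences are written 5′ to 3′ in the direction of transcription, with the antioxidant response element core in capitals, or the AP-1 motif in the case of OSGIN1. The windows are chr1:93909381-93909680 (minus strand) for GCLM, chr12:104215529-104215828 and chr12:104286782-104287081 (plus strand) for the starts of TXNRD1, chr14:64942696-64942995 (minus strand) for GPX2 and chr16:83952990-83953289 (plus strand) for OSGIN1.
GCLM: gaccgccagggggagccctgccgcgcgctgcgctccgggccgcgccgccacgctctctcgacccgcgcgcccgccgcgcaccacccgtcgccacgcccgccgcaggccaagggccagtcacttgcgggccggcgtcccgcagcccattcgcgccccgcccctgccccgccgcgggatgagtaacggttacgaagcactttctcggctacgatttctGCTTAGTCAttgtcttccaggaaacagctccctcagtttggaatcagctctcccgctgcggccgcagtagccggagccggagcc
TXNRD1, start 1: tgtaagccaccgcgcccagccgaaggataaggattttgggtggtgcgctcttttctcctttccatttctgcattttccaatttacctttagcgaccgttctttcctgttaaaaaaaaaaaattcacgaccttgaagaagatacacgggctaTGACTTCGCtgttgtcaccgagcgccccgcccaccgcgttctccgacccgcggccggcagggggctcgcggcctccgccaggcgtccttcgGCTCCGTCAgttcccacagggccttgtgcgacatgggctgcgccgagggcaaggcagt
TXNRD1, start 2: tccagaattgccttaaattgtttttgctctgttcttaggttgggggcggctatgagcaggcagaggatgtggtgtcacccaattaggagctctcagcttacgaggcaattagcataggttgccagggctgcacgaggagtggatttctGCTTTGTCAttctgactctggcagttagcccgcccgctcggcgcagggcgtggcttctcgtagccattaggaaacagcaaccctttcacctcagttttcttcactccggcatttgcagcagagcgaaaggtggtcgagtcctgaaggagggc
GPX2: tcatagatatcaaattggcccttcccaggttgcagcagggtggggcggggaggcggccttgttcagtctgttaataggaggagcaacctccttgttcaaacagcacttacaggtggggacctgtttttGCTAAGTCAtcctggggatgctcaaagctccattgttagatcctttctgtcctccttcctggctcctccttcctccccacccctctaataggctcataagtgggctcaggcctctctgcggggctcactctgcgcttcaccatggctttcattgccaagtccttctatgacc
OSGIN1: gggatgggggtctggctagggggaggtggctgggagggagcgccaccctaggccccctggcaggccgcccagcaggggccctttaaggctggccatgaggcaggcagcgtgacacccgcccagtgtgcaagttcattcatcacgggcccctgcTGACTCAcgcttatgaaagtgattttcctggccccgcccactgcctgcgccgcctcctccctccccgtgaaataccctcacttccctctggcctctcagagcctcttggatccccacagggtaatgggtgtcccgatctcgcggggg

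The core of GCLM began 34 bases before the start and read GCTTAGTCA, and that of GPX2 began 122 bases before it and read GCTAAGTCA, both on the opposite strand. Start 1 of TXNRD1 had cores beginning 99 and 8 bases before it, and start 2 had 1 beginning 102 bases before it. The AP-1 motif of OSGIN1 began 97 bases before its start, and 7.71% of all windows and 5.65% of those of measured genes held that motif. The windows of GCLC, SRXN1, NQO1 and NFE2L2 held neither of the pair. A match describes letters in a short window and no match says nothing of elements farther away. The ATF4-type element TGATGNAA was not found in the windows of the 8 genes, which 3.62% of all windows and 2.02% of those of measured genes held.

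**Figure D1:**
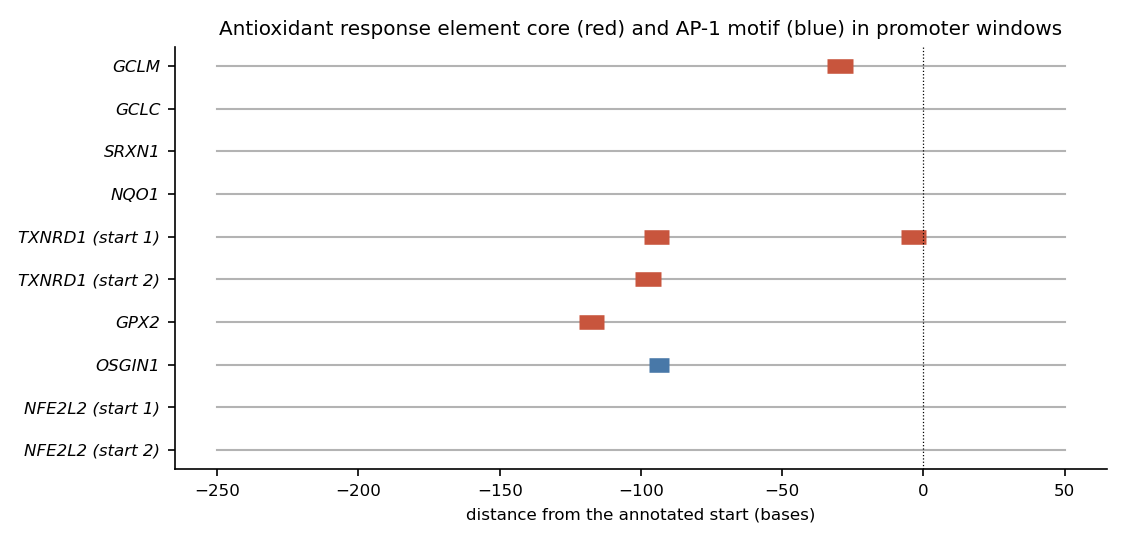
Positions of the antioxidant response element core (red) and the AP-1 motif (blue) in promoter windows, as distance in bases from the annotated start (x axis), 1 line per window. Cores lie 34 bases before the start in GCLM and 122 bases before it in GPX2, and start 1 of TXNRD1 has a pair.

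The libraries held 27032454 to 74227978 reads, unsorted replicate 2 being the deepest. Markers of the line were read, with VIM at 13455 to 20315, CD44 at 18740 to 24156 and the epithelial cadherin CDH1 at 0 to 28.3 over the 6 libraries. ERBB2 was at 588 to 1742. Keratins of simple epithelia were abundant and had lower means in migratory cells, at 58466 and 41581 for KRT8, 52093 and 42043 for KRT18 and 47127 and 30989 for KRT19 (limma adjusted p of 0.194, 0.301 and 0.174). The receptor AXL had the higher mean there, at 13427 and 21313, with groups apart (limma adjusted p of 0.129), and none of the 8 tested line markers passed in limma or edgeR, with 2 higher and 2 lower at an unadjusted limma p under 0.05 and 1 called by DESeq2. Over all tested genes 7.70% were higher and 10.0% lower at an unadjusted limma p under 0.05, and the counts at that threshold given below stand against these shares. Of 8 macrophage and blood markers 3 had a row, and their summed level was 776 to 974 in unsorted and 360 to 641 in migratory libraries, CD14 and CSF1R making up most of it. Of 6 fibroblast markers 5 had a row, with sums of 2772 to 4183 and 818 to 2111, and of 4 endothelial markers 2 had a row, with sums of 1267 to 1850 and 615 to 976. PECAM1 made up most of the endothelial sum. KDR, the other endothelial marker, had the higher mean in migratory cells, at 27.8 (unsorted) and 53.8 (migratory), with overlapping groups. None of 5 red cell markers had a row. Mitochondrial transcripts took 1.37% to 2.17% of reads in unsorted and 0.951% to 1.57% in migratory libraries. The part of these differences in the values below was not tested. In samples of many cells, fewer cells with a transcript and less of it in each cell cannot be told apart.

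HMOX1, which encodes haem oxygenase 1 and opens the haem ring to release iron, carbon monoxide and biliverdin, was higher in migratory cells. Its normalised read count was 1925, 1708 and 2685 in unsorted replicates 1 to 3 and 6657, 6477 and 8054 in migratory replicates 1 to 3. The groups did not overlap, and the lowest migratory library lay above the highest unsorted one by more than the range within either group. Means were 2106 ± 513 and 7063 ± 863 (SD, n = 3 per group), a 3.35-fold difference. On the log2(value + 1) scale the difference was 1.77 with an SE of 0.22 and a 95% interval of 1.28 to 2.25. With any 1 library left out it lay between 1.63 and 1.95. The gene lies at chr22:35380361-35394214 on the plus strand (GRCh38), and no exon of another gene overlaps its exons in GENCODE release 29.

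Other enzymes of haem breakdown had lower means in migratory cells and did not pass the test. BLVRB, biliverdin reductase B, had means of 4960 ± 1055 (unsorted) and 4129 ± 499 (migratory) (n = 3 each, limma adjusted p of 0.563). BLVRA, the main biliverdin reductase of adult tissue, was at 6992 ± 1581 and 4788 ± 515 (limma adjusted p of 0.242). Per kilobase of exon, the ratio of HMOX1 to BLVRB was 0.227, 0.311 and 0.373 in unsorted replicates 1 to 3 and 0.997, 1.15 and 1.51 in migratory replicates 1 to 3.

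FTL and FTH1 encode the light and heavy chains of ferritin, the iron store, and both are known NRF2 targets. FTL had means of 369820 ± 113044 (unsorted) and 377712 ± 11940 (migratory), with a log2 difference of 0.08 (95% interval -0.37 to 0.53, n = 3 each). FTH1 was at 30218 ± 6672 and 33693 ± 3390, a log2 difference of 0.18 (interval -0.23 to 0.58). Both have processed pseudogenes, and 62.4% of FTH1's exon sequence overlaps BEST1 on the other strand, so their values are less certain. TFRC, the transferrin receptor that brings iron into cells, was at 3882 ± 2452 and 7019 ± 1709, with unsorted replicate 2 at 6691 inside the migratory range (limma adjusted p of 0.216). SLC48A1, a haem transporter, was at 350 ± 105 and 527 ± 63.4 (limma adjusted p of 0.299). None of the 11 tested genes of haem and iron handling passed the limma test, with 1 higher and 1 lower at an unadjusted p under 0.05 and none called by edgeR or DESeq2. The median log2 difference of these 11 genes was 0.14, against -0.03 over all tested genes.

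**Figure D2:**
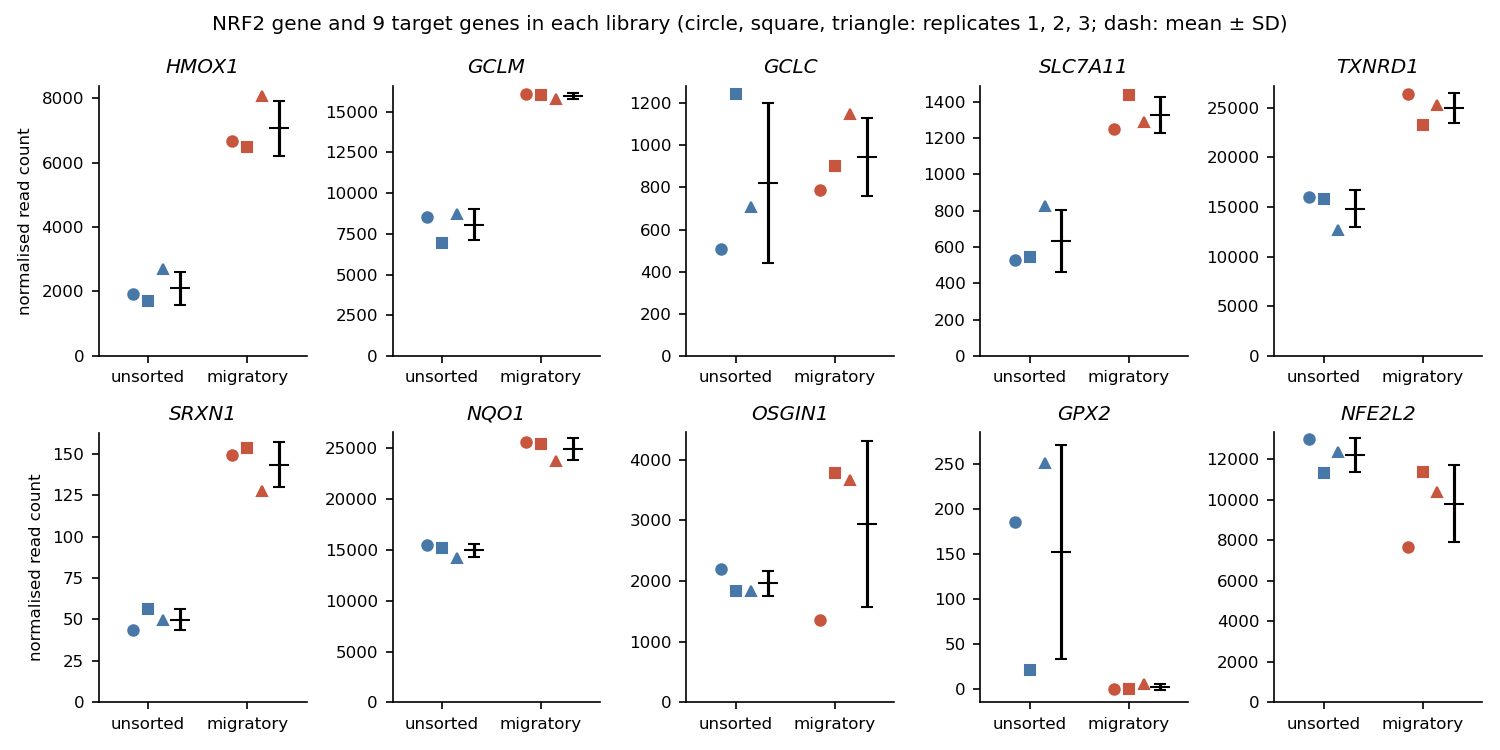
Normalised read count (y axis, from 0) of NFE2L2 and 9 target genes in each library (blue, unsorted; red, migratory; circle, square and triangle for replicates 1, 2 and 3; dash and bar for mean and SD, n = 3). HMOX1, GCLM, SLC7A11, TXNRD1, SRXN1 and NQO1 have every migratory point above the unsorted ones, GPX2 is near 0 in migratory cells, and OSGIN1, GCLC and NFE2L2 overlap.

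The glutathione genes of the set differed among themselves. GCLM encodes the modifier subunit of glutamate-cysteine ligase, which makes the enzyme more efficient at the step that limits glutathione synthesis. It was at 8519, 6962 and 8729 in unsorted replicates 1 to 3 and at 16095, 16000 and 15769 in migratory replicates 1 to 3. The migratory libraries were close to each other and all lay above the unsorted ones. The means of 8070 ± 965 and 15955 ± 168 (n = 3 each) differed 1.98-fold, with a log2 difference of 0.99 (SE 0.16, 95% interval 0.63 to 1.35). Leaving out 1 library at a time gave 0.89 to 1.05. GCLM lies at chr1:93885205-93909456 on the minus strand with no exon overlap.

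GCLC encodes the catalytic subunit of the same enzyme and showed no such separation. Its values were 507, 1242 and 709.5 in unsorted replicates 1 to 3 and 787, 902 and 1148 in migratory replicates 1 to 3. Unsorted replicate 2 was the highest of the 6 libraries, and unsorted replicate 1 the lowest. The log2 difference was 0.29 with a 95% interval of -0.46 to 1.04. GCLC lies at chr6:53497341-53616970 on the minus strand, and another gene shares 6.12% of its exon sequence. The difference was -0.0072 without unsorted replicate 1 and 0.64 without unsorted replicate 2. Per kilobase of exon GCLM exceeded GCLC by 18.5 ± 8.99 times in unsorted and 27.6 ± 5.39 times in migratory cells (n = 3 each), with overlapping values of 8.94 to 26.8 and 21.9 to 32.6.

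SLC7A11, the light chain of the cystine importer that supplies cysteine for glutathione, was at 528, 543 and 828 in unsorted replicates 1 to 3. In migratory replicates 1 to 3 it was at 1252, 1438 and 1289. The groups did not overlap, and means of 633 ± 169 and 1327 ± 98.6 (n = 3 each) gave a 2.10-fold difference, or 1.10 on the log2 scale (SE 0.25). The gene lies at chr4:138164097-138242349 on the minus strand. An antisense gene, SLC7A11-AS1, overlaps 8.97% of its exon sequence, and its reads could not be separated without strand information. SLC3A2, its heavy chain partner, was at 21556, 20275 and 26161 in unsorted and at 20431, 36576 and 40872 in migratory replicates 1 to 3. Migratory replicate 1 was within the unsorted range and the other two lay above it, and the limma adjusted p was 0.346.

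Among the other 22 tested glutathione genes, 10 had higher and 12 lower values, with a median log2 difference of -0.06. In limma 1 passed, where 0.234% of all tested genes did. At an unadjusted limma p under 0.05 there were 0 higher and 3 lower, where 7.70% and 10.0% of all tested genes were. GGT1, a surface enzyme that starts the breakdown of extracellular glutathione, fell from 1801 ± 503 to 445 ± 146 (n = 3 each). Its log2 difference was -2.03 (SE 0.33, limma adjusted p of 0.0498). The call was lost with each library left out in turn, at adjusted p of 0.0598 to 0.222, and in edgeR at 0.0613, while DESeq2 called it. GGT1 has near-identical relatives, so reads could be split among them. GSTK1, a mitochondrial and peroxisomal glutathione transferase, was at 5300 ± 818 and 3099 ± 396 (limma adjusted p of 0.112), and DESeq2 called it as lower. GSTM4, another glutathione transferase with close relatives in its cluster, was at 1615 ± 191 and 1075 ± 111 (limma adjusted p of 0.213). GSS, which completes glutathione, had a log2 difference of -0.09 (interval -0.51 to 0.33), and GSR, which reduces oxidised glutathione, one of 0.22 (interval -0.37 to 0.81).

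GPX2, a selenium-dependent glutathione peroxidase best known from gut epithelium, had lower values in migratory cells. It was at 185, 20.5 and 251 in unsorted replicates 1 to 3, which rested on 162, 42 and 308 reads. Migratory replicates 1 and 2 had no read, and replicate 3 had 5 reads, a value of 5.70. A count of 0 allows up to 3 reads, or 3.70 and 4.29 in the units of the table for these libraries, covering counting error only. The groups did not overlap, but unsorted replicate 2, the deepest library, stood far below the other unsorted ones. It passed the filter on low values through the unsorted libraries alone. GPX2 lies at chr14:64939152-64942905 on the minus strand with no exon overlap. The fitted log2 difference of -5.73 depended on the pseudocount and was -4.06 with 5 in place of 1. The relatives GPX1 and GPX4 were much more abundant and overlapped between the groups, at 12218 to 16513 against 11602 to 12353 for GPX1 and 12491 to 20432 against 13894 to 15441 for GPX4.

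Thioredoxin genes had TXNRD1 and SRXN1 in the set. TXNRD1, the cytosolic thioredoxin reductase, was at 15968, 15795 and 12689 in unsorted and at 26334, 23298 and 25247 in migratory replicates 1 to 3. All migratory libraries were above all unsorted ones, and means of 14817 ± 1845 and 24959 ± 1538 (n = 3 each) differed 1.68-fold, 0.76 on the log2 scale (SE 0.16). TXNRD1 lies at chr12:104215779-104350305 on the plus strand with no exon overlap, and the values do not separate transcripts from its alternative starts. SRXN1, sulfiredoxin, which restores overoxidised peroxiredoxins, was at 43.4, 56.2 and 49.7 in unsorted and 149, 153 and 128 in migratory replicates 1 to 3. The groups were again apart, with a 2.88-fold difference of means and a log2 difference of 1.51 (SE 0.37). These values rest on 38 to 121 reads per library, and the gene lies at chr20:646615-653370 on the minus strand. Of SRXN1's exon sequence 85.0% is shared with another annotated gene on the same strand, AL121758.1, and the counting rule for shared exons is not known, so its level is uncertain.

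Thioredoxin and the peroxiredoxins named here had log2 differences closer to 0 than TXNRD1 and SRXN1, and none passed the test. TXN, thioredoxin itself, was at 32358, 22804 and 34843 in unsorted and 52888, 35203 and 36703 in migratory replicates 1 to 3, with no overlap and a limma adjusted p of 0.284. Per kilobase of exon, the ratio of TXNRD1 to TXN was 0.0840, 0.118 and 0.0620 in unsorted replicates 1 to 3. In migratory replicates 1 to 3 that ratio was 0.0848, 0.113 and 0.117, and the groups overlapped. PRDX1, an abundant peroxiredoxin and known NRF2 target, was at 44716 ± 4161 and 49668 ± 8301 (n = 3 each, limma adjusted p of 0.662), with 24.9% of its exon sequence overlapped by MMACHC on the other strand. PRDX6 was at 13389 ± 867 and 16947 ± 1681, and PRDX5 at 11401 ± 2285 and 7962 ± 875. None of the 11 tested thioredoxin and peroxiredoxin genes passed in limma, edgeR or DESeq2, and 1 was lower at an unadjusted limma p under 0.05. Their median log2 difference was -0.08.

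NQO1, a quinone reductase that takes electrons from NADPH or NADH, was the most abundant member per length. It was at 15446, 15247 and 14215 in unsorted and 25648, 25427 and 23748 in migratory replicates 1 to 3. The spread within each group was small beside the gap, and means of 14969 ± 660 and 24941 ± 1039 (n = 3 each) differed 1.67-fold, 0.74 on the log2 scale (SE 0.14). NQO1 lies at chr16:69706996-69726951 on the minus strand, and an opposite-strand gene overlaps 17.7% of its exon sequence. OSGIN1, an oxidative stress-induced growth inhibitor, was at 2198, 1839 and 1840 in unsorted and at 1360, 3785 and 3658 in migratory replicates 1 to 3. Migratory replicate 1 was the lowest of all 6 libraries while replicates 2 and 3 were the highest. OSGIN1 lies at chr16:83948282-83966332 on the plus strand and shares 13.9% of its exon sequence with another gene. Its log2 difference was 0.45 (interval -0.36 to 1.26) with all libraries and 0.93 without migratory replicate 1, against 0.19 and 0.22 without migratory replicates 2 and 3.

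NFE2L2 itself was at 12967, 11325 and 12341 in unsorted and at 7661, 11355 and 10391 in migratory replicates 1 to 3. The groups overlapped, migratory replicate 1 was the lowest, and the log2 difference was -0.33 (interval -0.75 to 0.08). Without migratory replicate 1 it was -0.17. NFE2L2 lies at chr2:177227595-177392697 on the minus strand, and another gene on that strand shares 17.6% of its exon sequence. The factor's own RNA had the lower mean in migratory cells.

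**Figure D3:**
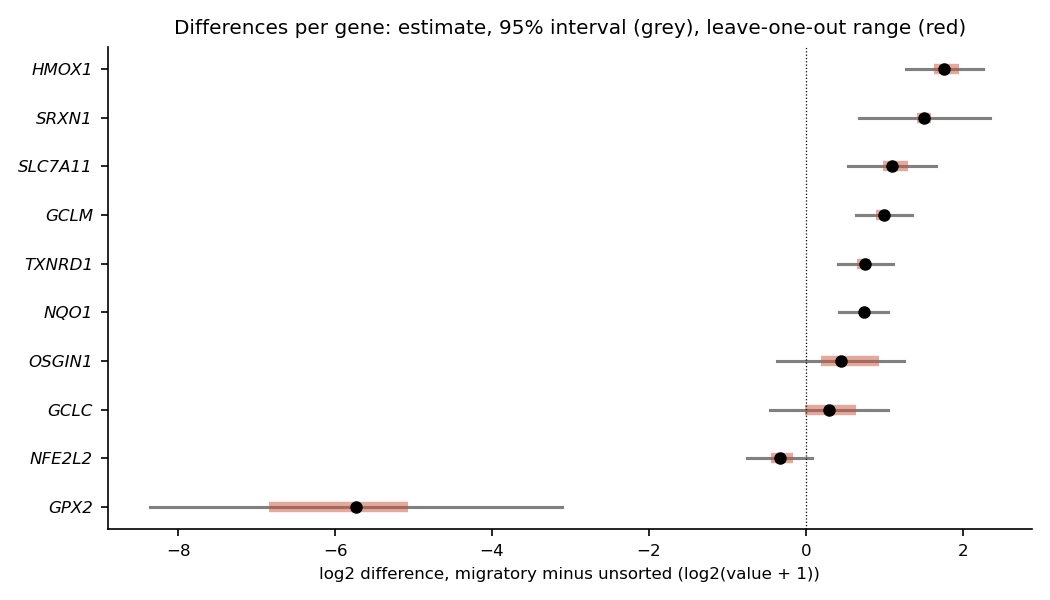
Log2 difference, migratory minus unsorted, of each gene on the log2(value + 1) scale (x axis). Black points are estimates from 3 libraries per group, grey lines 95% intervals, and red bands the range when 1 library is left out; HMOX1 is highest at 1.77 and GPX2 lowest at -5.73.

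Over the 10 genes the median log2 difference was 0.75, against -0.03 over all tested genes. Groups did not overlap with higher migratory values for 6 genes, where 11.3% of all tested genes did so, and with lower values for 1, where 12.5% did. HMOX1 and GCLM were past the limma threshold of an adjusted p of 0.05, where 0.234% of all tested genes were, 0.0443% as higher. In edgeR, which called 0.133% of genes, HMOX1 was the 1 member called, and in DESeq2, which called 5.91%, 7 members were. HMOX1 was not called without unsorted replicate 1, 2 or 3 or without migratory replicate 2 or 3, and GCLM was called in none of the 6 fits with a library left out. Since the set was drawn up with this comparison known, these counts describe the set and support nothing.

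Levels were compared between genes per kilobase of exon sequence, taking all annotated exons of a gene together. In unsorted cells the order was NQO1 at 4600 ± 203, TXNRD1 at 2209 ± 275, NFE2L2 at 2042 ± 139, GCLM at 1489 ± 178, HMOX1 at 876 ± 213 and OSGIN1 at 566 ± 59.9 (n = 3 each). GPX2 at 102 ± 79.2, GCLC at 94.8 ± 43.9, SLC7A11 at 65.6 ± 17.5 and SRXN1 at 18.4 ± 2.37 followed. The place of SRXN1 is uncertain, since most of its exon sequence is shared and the counting rule for shared exons is not known. Libraries of TXNRD1 and NFE2L2 overlapped, as did those of GPX2 and GCLC and those of GCLC and SLC7A11, so these neighbours are not ordered beyond their spread. In migratory cells HMOX1 at 2937 ± 359 and GCLM at 2944 ± 30.9 overlapped each other, and both lay above NFE2L2 at 1639 ± 320. NQO1 at 7665 ± 319 and TXNRD1 at 3721 ± 229 were still the highest. SLC7A11 at 138 ± 10.2 overlapped GCLC at 109 ± 21.3, and GPX2 was last.

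**Figure D4:**
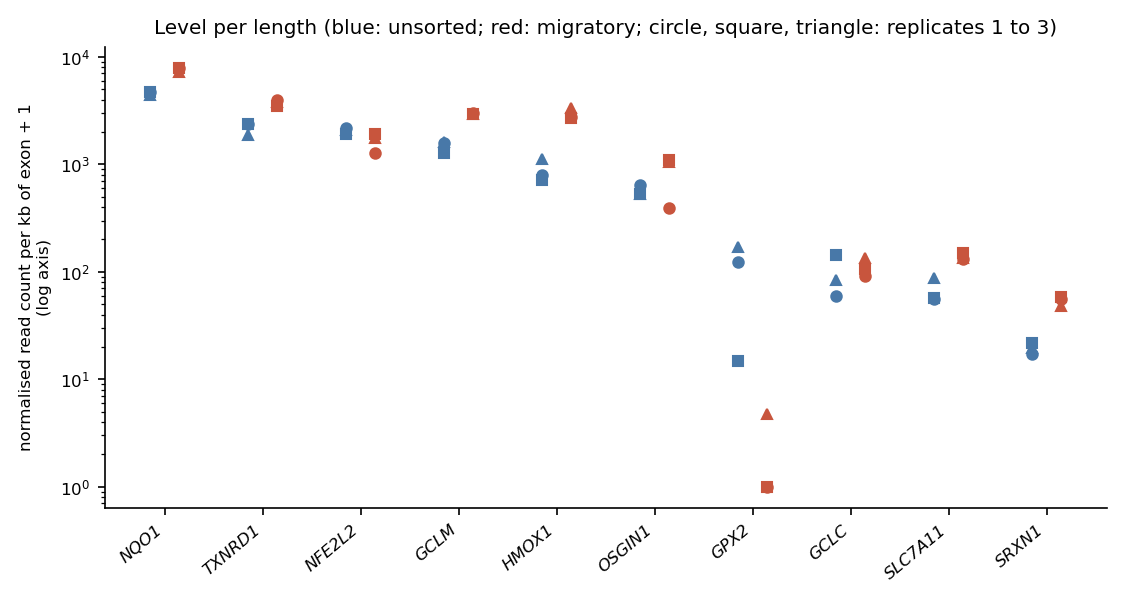
Normalised read count per kilobase of exon plus 1, on a log axis, for the 10 genes in order of their unsorted mean (blue, unsorted; red, migratory; circle, square and triangle for replicates 1 to 3). HMOX1 lies below NFE2L2 in unsorted libraries and above it in migratory ones, and GPX2 is at no read in migratory replicates 1 and 2.

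The regulators around NRF2 showed no call in limma, edgeR or DESeq2 among 13 tested genes, with 1 higher at an unadjusted limma p under 0.05. KEAP1, the inhibitor, was at 8885, 9596 and 9608 in unsorted and at 4364, 9863 and 8016 in migratory replicates 1 to 3. Here too migratory replicate 1 was the lowest library, and the log2 difference was -0.42 (interval -1.02 to 0.19). CUL3, the ligase scaffold, differed by -0.02 (interval -0.49 to 0.46), the small MAF partner MAFG by -0.22 (interval -0.94 to 0.50), and SQSTM1, the autophagy receptor that can trap KEAP1, by -0.17 (interval -0.72 to 0.38). Of SQSTM1's exon sequence 20.7% overlaps a gene on the other strand. BACH1, the repressor of HMOX1, had a mean of 832 ± 199 against 1247 ± 131 in migratory cells (n = 3 each), with groups apart and a limma adjusted p of 0.251. MAFK, another small MAF partner, was at 29.1 ± 8.09 and 57.4 ± 6.36 (limma adjusted p of 0.329). SYVN1, an endoplasmic reticulum ubiquitin ligase, was at 1062 ± 164 and 706 ± 250 (limma adjusted p of 0.315).

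Glutathione and thioredoxin reduction depend on NADPH. Enzymes that make it or belong to the pentose phosphate pathway were mixed. TALDO1, transaldolase of the pentose phosphate pathway, was at 17485 ± 2043 in unsorted and 21268 ± 668 in migratory libraries, and the groups did not overlap (n = 3 each, limma adjusted p of 0.346). IDH1, the cytosolic isocitrate dehydrogenase, was at 6463 ± 755 and 4610 ± 738 (limma adjusted p of 0.233), and ME1, malic enzyme, at 6585 ± 880 and 4837 ± 1624 (limma adjusted p of 0.345). None of the 6 tested genes of this list passed in limma, edgeR or DESeq2, and 1 was lower at an unadjusted limma p under 0.05.

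Of 17 detoxifying enzymes and exporters, 6 had higher and 11 lower values and none passed in limma or edgeR. At an unadjusted limma p under 0.05 there were 1 higher and 5 lower, where 7.70% and 10.0% of all tested genes were. TRIM16L, a gene often listed with NRF2 targets and similar in sequence to TRIM16, was at 3403, 2968 and 2368 in unsorted and 5974, 5390 and 5913 in migratory replicates 1 to 3. Its libraries were apart, with a log2 difference of 1.00 (SE 0.20, limma adjusted p of 0.073), and DESeq2 called it. EPHX1, an epoxide hydrolase, was at 4413 ± 508 and 2318 ± 656 (n = 3 each, limma adjusted p of 0.110). AKR1C2, an aldo-keto reductase nearly identical to AKR1C1, was at 6617 ± 1588 and 3631 ± 778 (limma adjusted p of 0.127), and AKR1C1 was at 28423 to 32425 in unsorted and 27748 to 28914 in migratory libraries. DESeq2 called EPHX1 and AKR1C2 as lower.

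Superoxide and peroxide enzymes had lower values for 3 of 4 genes, and none passed in limma or edgeR, with 2 lower at an unadjusted limma p under 0.05. SOD2, the mitochondrial superoxide dismutase, was at 4757, 5248 and 13797 in unsorted and 2353, 2598 and 1442 in migratory replicates 1 to 3. The groups did not overlap, unsorted replicate 3 stood well above the others, and the limma adjusted p was 0.082. DESeq2 called SOD2 as lower. Catalase, CAT, was at 4613 ± 333 and 3590 ± 374, and the secreted SOD3 at 480 ± 82.0 and 270 ± 89.1 (n = 3 each, limma adjusted p of 0.322 and 0.214).

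Genes of ATF4, the amino acid stress factor that also drives SLC7A11, had 6 higher and 6 lower values, with a median log2 difference of 0.19. Groups did not overlap for 4 higher and 1 lower, where 11.3% and 12.5% of all tested genes did so. ATF4 itself was at 5503 ± 507 (unsorted) and 7893 ± 868 (migratory), with groups apart (n = 3 each, limma adjusted p of 0.182). Among 12 genes none passed in limma or edgeR, while 5 higher and 2 lower had an unadjusted limma p under 0.05, against 7.70% and 10.0% of all tested genes, and DESeq2 called 2 as higher. PSAT1, an aminotransferase of serine synthesis, was at 2571, 3091 and 3533 in unsorted and 5162, 5292 and 9346 in migratory replicates 1 to 3 (limma adjusted p of 0.103). DDIT3, the stress factor CHOP, was at 1061 ± 164 and 1977 ± 442 (n = 3 each, limma adjusted p of 0.128), with 27.2% of its exon sequence shared with MARS on the other strand. DDIT4, an inhibitor of mTORC1, was at 4592 ± 1864 and 2030 ± 1356 (limma adjusted p of 0.176).

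**Figure D5:**
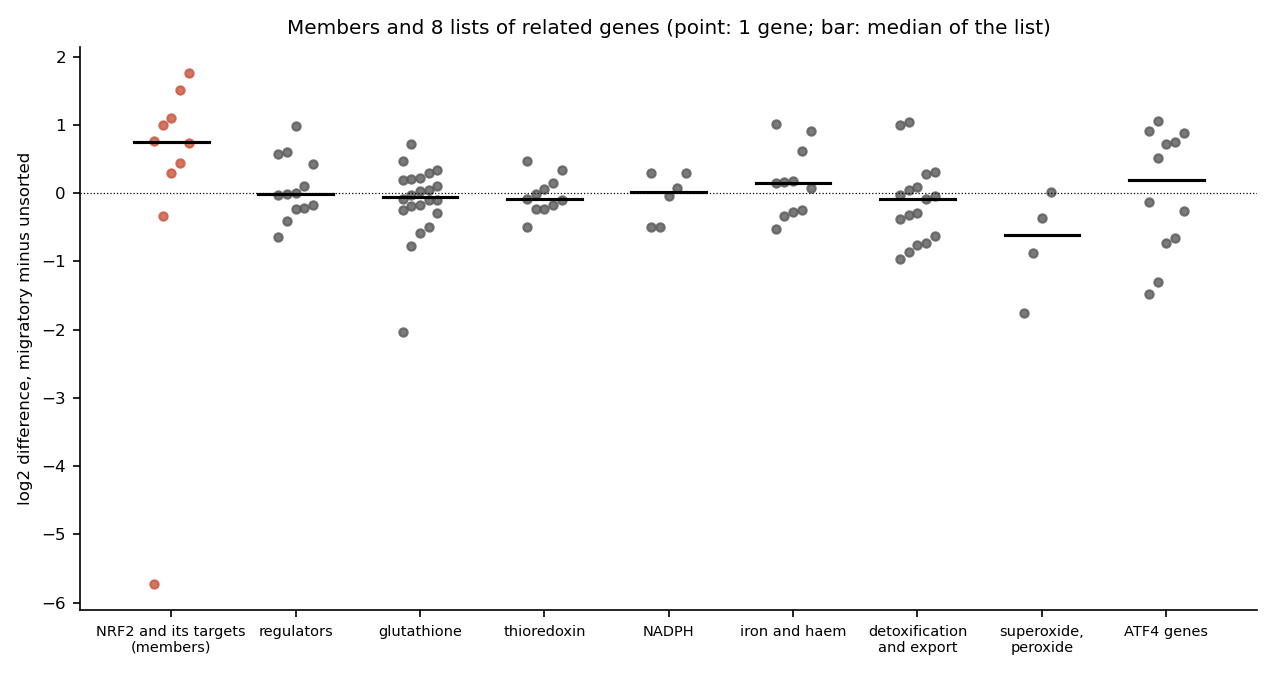
Log2 difference, migratory minus unsorted (y axis), of each member gene (red) and of each tested gene in 8 lists of related genes (grey), with the median of each list as a bar. The members have a median of 0.75, with GPX2 far below, and the medians of the other lists lie between -0.62 for superoxide and peroxide enzymes and 0.19 for ATF4 genes.

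Over the 8 lists together, 95 genes were tested, 41 with higher and 54 with lower values, and the median log2 difference was -0.04. Groups did not overlap for 11 genes with higher and 14 with lower migratory values, where the shares over all tested genes were 11.3% and 12.5%. GGT1 was the 1 gene past the limma threshold.

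The profiles nearest to HMOX1 and GCLM over the 6 libraries were sought among 12380 other genes with a mean of at least 50, by the mean absolute difference of log2 values centred on each gene's mean. Such a distance includes the difference between the groups, by which the set was chosen. Ranks of its members therefore describe the set and support nothing. Nearest to HMOX1 was an uncharacterised transcript named after its genomic clone, at 0.21. FOSL1, an AP-1 subunit, and FGF5, a fibroblast growth factor, followed at 0.22 each, then MIDN at 0.22 and PRR11 at 0.24. SRXN1 had rank 6, at 0.24, SLC7A11 rank 16, at 0.33, and GCLM rank 47, at 0.39. The remaining members were farther from HMOX1, with NQO1 at rank 361, TXNRD1 at 467 and OSGIN1 at 1746. GCLC had rank 3134, NFE2L2 rank 9093 and GPX2 rank 12378. FOSL1 went from 4592, 6024 and 7287 in unsorted to 14833, 12050 and 20704 in migratory replicates 1 to 3. Nearest to GCLM was SHOC2, a scaffold of RAS-RAF signalling, at 0.08, followed by USP46, a deubiquitinase, at 0.08, MYEOV at 0.09, the lipase inhibitor G0S2 at 0.10 and MTPN at 0.10. From GCLM, SLC7A11 had rank 46 and NQO1 rank 52, at 0.15 each, and TXNRD1 rank 171, at 0.19. SRXN1 had rank 1215, at 0.30, HMOX1 rank 2930, at 0.39, and GCLC rank 4646, at 0.46. OSGIN1 had rank 3640, NFE2L2 rank 8751 and GPX2 rank 12378.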

How the data were processed

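The deposited table held, per the labels, normalized reads of 6 libraries (3 unsorted, 3 migratory), a signal of reads per gene divided by a size factor, with no length scaling. The submitters' processing notes name HISAT2, HTSeq and DESeq2 and the builds hg38 and GRCh38.p7. No source used here gives versions, roles, annotation or filters. No column of sample values was unused. Values came out as whole reads within 0.01 read in 100% of cases, which gave the reads per library.

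The main test was limma 3.58.1 (R 4.3.3) with an intensity trend on log2(value + 1), for the 15786 genes with a mean of at least 10. On this scale differences of low genes are understated, and folds given are ratios of group means. P-values are two-sided and Benjamini-Hochberg adjusted over all tested genes. They reflect variation among these samples alone, possibly technical. On whole reads, edgeR 4.0.16 (quasi-likelihood) called 21 genes and DESeq2 1.42.0 called 933, with 3 adjusted p left as NA. The fit was also run on simulated counts with dispersions estimated from these libraries, and nothing is read from that run. Other settings were another pseudocount, filter and scaling, array weights, a replicate block and leaving out each library.

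Members and lists were chosen with earlier results of these data known. Of the lists, genes past the threshold or else the 3 with the smallest p were named, besides fixed genes such as KEAP1 and FTL, and the 5 profiles nearest to HMOX1 and to GCLM. HMOX2 was not analysed here, and 1 other named gene is not reported here. GPX1, GPX4, AKR1C1, ATF4 and the cell markers were named after their values were seen. Positions, exon lengths and overlaps come from GENCODE release 29 (GRCh38), matched by symbol for 85.8% of genes, and the submitters' annotation may differ.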

Additional observations from a re-analysis of the deposited data

How the results depend on the processing

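Over 15 settings each of HMOX1, GCLM, SLC7A11, SRXN1, NQO1, TXNRD1, OSGIN1, GPX2 and NFE2L2 kept its direction, and GCLC changed sign in 1. The median log2 difference of the 10 genes was 0.68 to 0.82 with a library left out. In limma 37 genes were called, against 68 with a pseudocount of 5, 78 with a filter at a mean of 50, 75 with upper-quartile scaling, 507 with array weights and 1 to 44 with a library left out, while edgeR called 21 and DESeq2 933. Of the 10 members, 2 were called, against 1 with no filter, upper-quartile scaling or edgeR, 6 with array weights, 7 with DESeq2 and 0 to 1 with a library left out, where 7 to 8 had an unadjusted limma p under 0.05, as did 11.3% to 18.9% of all tested genes. The members were chosen by this comparison, so these counts support nothing. Of the 95 tested genes in the 8 lists 1 was called, where 0.234% of all tested genes were. The count was 7 with array weights, where 507 of all genes were called, and 8 with DESeq2, which called 5.91%. The count was 0 with no filter, with edgeR and with any library left out. With a library left out, 13 to 27 genes of the lists had an unadjusted limma p under 0.05, against 11.3% to 18.9% of all tested genes. With no filter there were 23, against 17.5%, and in edgeR 22, against 16.1%. The cause of these shifts was not tested.

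Whether the replicate numbers mark paired libraries could not be decided from these few libraries. Deviations of libraries of one number correlated at 0.117, 0.108 and 0.0369 across genes for replicates 1, 2 and 3. Between numbers the correlations were -0.162 to 0.0723, and unsorted replicate 3 correlated more with migratory replicate 1, at 0.0481. With a replicate block limma called 114 genes in all, 3 of the members with GPX2 added, and 3 genes of the lists, GGT1, PSAT1 and DDIT4. SRXN1 and GPX2 rest on few reads, and depth limits what can be said of their levels.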
